A study of Mus musculus with 23 samples.

Results

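Hearts of mice taken 7 days after a dose of lipopolysaccharide (LPS) were compared with hearts of untreated mice from the same arm of the study. The libraries were chosen by their labelled time point, 4 as LPS day 7 and 4 as LPS baseline, which are 8 of the 23 libraries in the series. Every mouse was a female wild-type C57BL/6J, an inbred laboratory strain, given as 10 weeks old. The LPS day 7 mice had received 2.5 mg/kg of LPS, and the LPS baseline mice no treatment. For comparison, 4 hearts taken 1 day after the same dose, and 4 untreated and 4 day 7 hearts of an arm given 300 mg/kg of isoproterenol (ISO, a beta-adrenergic agonist), were used side by side. The 3 remaining hearts, ISO day 1, entered the shared estimate of spread only. None of the groups used here is a vehicle-injected one, and the hour of collection is not given in the sources used here, so effects of the injection or of the hour cannot be told apart from those of LPS. Whole hearts were sequenced as poly-A RNA, so for every result below fewer cells of a type and less RNA per cell cannot be told apart.

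LPS is a glycolipid of the outer membrane of Gram-negative bacteria. It is bound by CD14 and sensed by Toll-like receptor 4, which switches on NF-kB-driven cytokines and acute-phase proteins and, through interferon regulatory factors, type I interferons. Natural killer and T cells answer with interferon-gamma, which raises antigen presentation and the GTPases that act against microbes inside cells. The working heart makes most of its ATP by oxidising fatty acids in mitochondria, with glucose, ketone bodies and branched-chain amino acids as other fuels, and these programmes are known to be turned down in endotoxaemia. The comparison at day 7 asks what of the immune and metabolic change remained.

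Estimated reads assigned to genes totalled 22202136 to 25235132 in the day 7 libraries and 24957393 to 28446241 in the baseline libraries, and 15732 genes passed the count filter. Cardiomyocyte markers were present in every library, with Myh6, the main ventricular myosin of the adult mouse, at 35340 to 41400 CPM (counts scaled to a common library size with TMM factors). The thymocyte genes Rag1, Rag2, Dntt and Ptcra and the lung genes Sftpc, Sftpa1 and Scgb1a1 had no read in the 8 libraries. Mitochondrially encoded transcripts took 24.7% ± 1.27 of reads at day 7 and 28.3% ± 0.756 at baseline (SD, n = 4 each). The groups did not overlap. An exact permutation test (two-sided) returned 0.0286, the least possible p for 4 libraries against 4, or 0.0714 after adjustment over 5 library measures. Haemoglobin transcripts took 0.0934% to 0.454% of reads at day 7 and 0.076% to 0.117% at baseline, and day 7 replicate 2 stood apart at 0.454%.

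Many immune lists held large rises, whereas lists of oxidative metabolism and of cardiomyocyte genes held mostly small falls. Not all lists did so: none of 14 acute-phase and metallothionein genes was called. In glucose uptake and glycolysis 3 of 26 genes rose and none fell. Of 15732 genes tested 1431 were called (9.1%): 938 rose (5.96% of those tested) and 493 fell (3.13%), by edgeR's quasi-likelihood test with Benjamini-Hochberg adjustment over all genes, which is the test behind every adjusted p given for a gene. Of the genes that rose, 358 did so at least 2-fold (2.28%), against 16 of those that fell (0.102%). The median size of a change was 0.80 on the log2 scale for genes that rose and 0.30 for genes that fell. Of the 938 genes that rose, 858 had all 4 day 7 libraries above all 4 baseline libraries, and of the 493 that fell, 472 had them all below. Over all genes tested, 10.7% were separated in this way on the higher side and 10.0% on the lower. The number of calls leaned on single libraries: it was 621 without day 7 replicate 3, 774 without baseline replicate 1 and 761 without baseline replicate 2. The split into higher and lower depended on the scaling. With library totals in place of TMM factors, 2421 genes were higher and 90 lower, with the median of all genes moved from 0.00 to 0.16. Small falls below are therefore stated on the TMM scale.

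**Figure D1:**
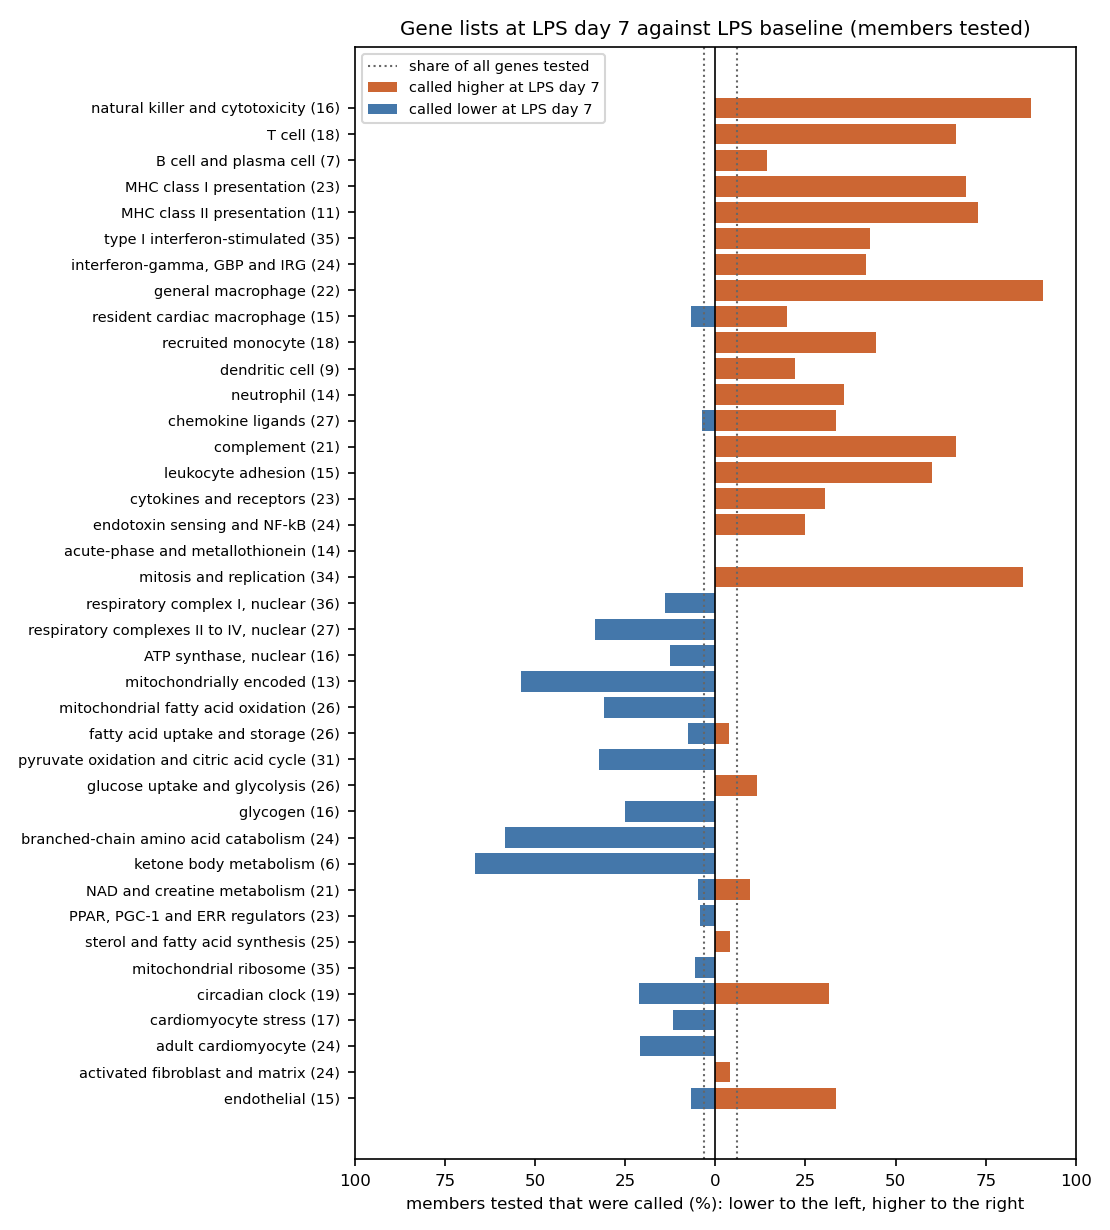
Share of the tested members of each gene list that were called higher (orange, to the right) or lower (blue, to the left) at LPS day 7 against LPS baseline, in percent, with the number of tested members in brackets. Dotted lines mark the shares over all genes tested, 5.96% higher and 3.13% lower. Immune lists and the mitosis list extend to the right and lists of oxidative metabolism to the left, while no acute-phase gene was called. Of the natural killer genes 9 of 16, and of the T cell genes 9 of 18, passed the filter through the day 7 libraries. For such genes a higher day 7 level was built in.

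Genes of natural killer (NK) cells and of the cytotoxic granule rose in 14 of 16 tested members. Il2rb (ENSMUSG00000068227, chr15:78479256-78495271 in GRCm38), the beta chain of the interleukin-2 and interleukin-15 receptors, stood at 0.507, 0.382, 0.632 and 0.356 CPM in baseline replicates 1 to 4 and at 6.78, 6.95, 6.17 and 5.98 CPM in day 7 replicates 1 to 4. All day 7 libraries were thus far above the baseline ones, and the log2 change was 3.77 (SE 0.27, adjusted p = 1.03e-08). Gzma, granzyme A, a protease of killer cell granules, had 6 reads over the 4 baseline libraries and 416 over the 4 day 7 libraries, with 2.89 CPM in the lowest day 7 library and 0.109 CPM in the highest baseline one. The granule genes Gzmb (granzyme B, a log2 change of 5.04), Prf1 (perforin, 4.46) and Nkg7 (a granule membrane protein, 3.87) rose too, each without overlap between the groups. Tbx21 (T-bet, a transcription factor of type 1 lymphocytes) rose by 3.60 from 5 to 67 reads, and Ctsw, cathepsin W, by 4.16.

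NK receptors were close to the limit of detection at baseline. Klrb1c (the NK1.1 antigen) went from 1 read over the baseline group to 95 over the day 7 group. The ratio was 94.9, and its 95% interval, exact for counts, ran from 16.6 to 3790. Ncr1 (NKp46), an activating receptor that defines NK cells, went from 3 reads to 95, a ratio of 31.6 with an interval of 10.5 to 156. Klrk1 (NKG2D) went from 2 to 126 reads, with a ratio of 62.9 and an interval of 17.1 to 525. Xcl1, a chemokine that NK and CD8 T cells release to attract cross-presenting dendritic cells, went from 1 to 98 reads, with a ratio of 97.9 and an interval of 17.2 to 3900. These intervals cover counting error only. Each of these 4 genes was called, but 9 of the 16 tested members of the list passed the filter through the day 7 libraries. Such genes had to differ, so for genes this low at baseline the calls and ratios are a description.

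None of the NK and cytotoxicity list fell, 5.96% of all genes were higher, and the list's median log2 change was 4.20 against 0.00 over all genes. That median was 2.97 with log2(TPM + 0.1). The 2 members not called were Gzmm (-0.01, adjusted p = 0.986), at 340 baseline and 336 day 7 reads, and Klra9 (0.73, adjusted p = 0.186). Another 11 members were below the filter, among them Klrd1, Klrc1 and Fasl, and together held 14 baseline and 241 day 7 reads, with more at day 7 for each of the 11. Of the tested members, 9 passed the filter through the day 7 libraries and so had to differ, and the count and the median are a description. With 1 library left out, 10 to 14 NK members were called higher. Erythrocyte genes had a median of 1.16 at day 7. The list's summed level was 27.1 to 30.2 CPM at day 7, 4.78 to 5.58 CPM at LPS baseline, 7.01 to 10.1 CPM at LPS day 1, 4.32 to 6.15 CPM at ISO baseline and 4.63 to 5.7 CPM at ISO day 7. Of these 5 groups LPS day 7 was the highest, and ISO day 7 lay within the range of the ISO baseline.

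Of 18 tested T cell genes 12 rose, where 5.96% of all genes did. Lck, the kinase that starts T cell receptor signalling, stood at 0.0362 to 0.198 CPM at baseline and at 0.858, 1.09, 1.54 and 0.843 CPM at day 7, a log2 change of 3.31 (SE 0.43, adjusted p = 4.25e-05). Cd3e, a chain of the receptor complex, rose by 2.66 and Cd8a, the co-receptor of cytotoxic T cells, by 2.69, and Cxcr3, the receptor for interferon-induced chemokines, by 2.50. Cd3e lost its call with effective-length offsets (1.99) and against ISO baseline (1.57). Cd4, the co-receptor of helper T cells that macrophages also carry, was at 1.01 (adjusted p = 0.0871) and was not called. Foxp3, which marks regulatory T cells, had 7 baseline and 10 day 7 reads and was not tested. None fell, the median was 2.05, and 9 of the 18 passed the filter through the day 7 libraries and so had to differ. The summed level was 29.3 to 37.1 CPM at day 7 against 18.3 to 21.3 CPM at baseline. The count was 7 without day 7 replicate 3. The 12 untested members held 67 baseline and 269 day 7 reads.

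Of 7 tested B cell genes 1 was called, where 9.1% of all genes were. Ighm, the immunoglobulin M heavy chain, stood at 4.96, 3.36, 5.41 and 3.4 CPM at baseline and at 6.78, 8.63, 10.9 and 7.46 CPM at day 7, a rise of 0.98 (SE 0.20, adjusted p = 0.0031). The B cell antigen receptor genes Cd79a (-1.09, adjusted p = 0.281) and Cd79b (0.56, adjusted p = 0.524) were not called, and the defining marker Ms4a1 had 5 baseline and 6 day 7 reads.

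**Figure D2:**
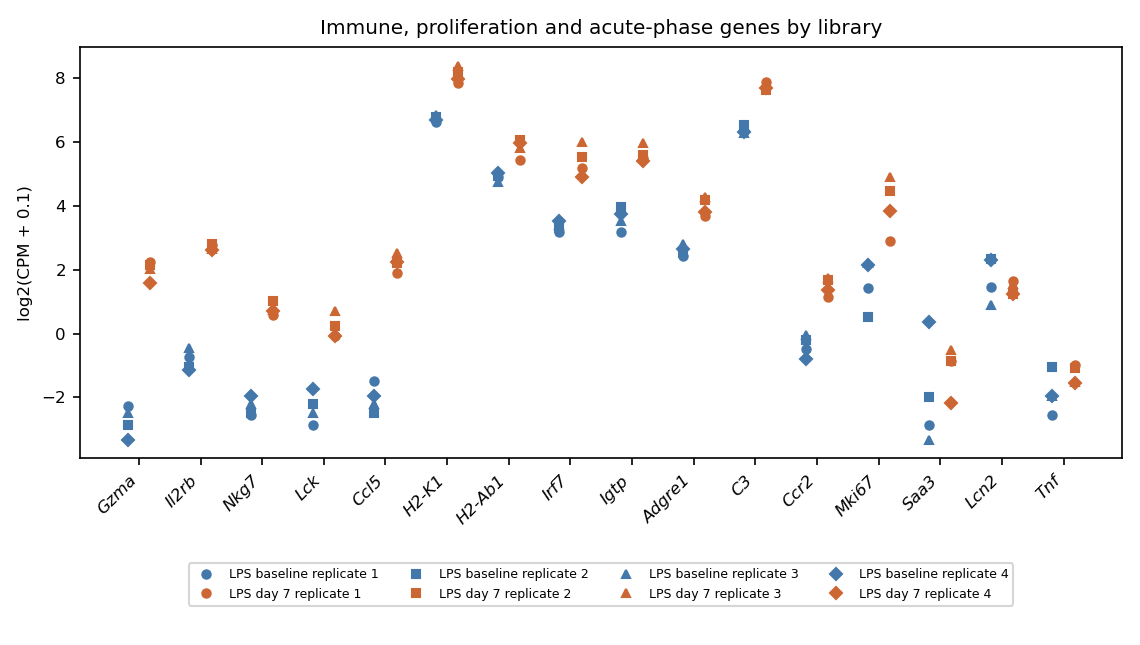
Level of 16 genes in each of the 4 LPS baseline (blue) and 4 LPS day 7 (orange) libraries, as log2(CPM + 0.1), with a marker shape per replicate number. Lymphocyte, antigen presentation, interferon, macrophage and complement genes are separated between the groups, whereas the acute-phase genes Saa3 and Lcn2 and the cytokine gene Tnf overlap. Of the NK genes 9 of 16, and of the T cell genes 9 of 18, passed the filter through the day 7 libraries. For such genes a separation was built in.

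Genes of antigen presentation rose in both branches, class I and class II. H2-K1, a class I molecule that shows peptides to CD8 T cells, stood at 98.1, 110, 115 and 102 CPM at baseline and at 228, 292, 334 and 249 CPM at day 7. The groups were far apart, and the log2 change was 1.37 (SE 0.13, adjusted p = 3.82e-07). Its light chain B2m rose by 1.21, the class I molecule H2-D1 by 1.02 and Nlrc5, the transactivator of class I genes, by 1.03. The interferon-inducible proteasome subunits Psmb8 (0.85), Psmb9 (0.64) and Psmb10 (0.55) and the peptide transporter Tap1 (0.87) rose as well. Of 23 class I presentation genes, 16 rose and none fell, against 5.96% of all genes higher, and the median was 0.62. With any 1 library left out, 12 to 16 were called higher.

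Class II genes, which present peptides to CD4 T cells, rose by a similar factor. H2-Ab1 stood at 29.7, 30.4, 26.8 and 32.6 CPM at baseline and at 42.9, 66.9, 56.4 and 62.7 CPM at day 7, a change of 0.94 (SE 0.13, adjusted p = 0.000146). Day 7 replicate 1 was the lowest of the day 7 libraries here and for H2-Eb1, H2-Aa, Cd74 and Ciita. H2-Eb1 and H2-Aa rose by 0.99 each, the invariant chain Cd74 by 0.94 and the cysteine protease Ctss, which trims it, by 1.13. Ciita, the class II transactivator, rose by 1.05 (adjusted p = 0.0108), a call lost with effective-length offsets, where the value was 0.96. Of 11 tested genes 8 rose and none fell, against 5.96% of all genes higher, and 6 were called without day 7 replicate 3. The 3 not called were Lgmn, H2-DMb2 and H2-Ob.

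Part of the interferon-stimulated genes were above baseline at day 7, at levels below those of day 1. The promoters below, each the 250 bases before the RefSeq start, belong to the leading members by adjusted p of the type I interferon list (Ifit3b), the interferon-gamma list (Irgm2 and Igtp) and the mitosis list (Ccnb2) for which the RefSeq table (GRCm38.p6) gave a window free of the gene's annotated exons. They are shown as examples from lists whose called members all rose. Capitals mark matches, on either strand, to the core of the interferon-stimulated response element (GAAA, then any 2 bases, then GAAA) in the first 3, and to TTTGAA, the core of the cell cycle homology region, in Ccnb2.
Ifit3b promoter, chr19:34607707-34607956, strand +: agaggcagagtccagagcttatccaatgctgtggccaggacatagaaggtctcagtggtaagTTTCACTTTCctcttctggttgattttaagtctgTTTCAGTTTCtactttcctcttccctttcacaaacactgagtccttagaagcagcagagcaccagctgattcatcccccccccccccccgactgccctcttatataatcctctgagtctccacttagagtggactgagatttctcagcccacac
Irgm2 promoter, chr11:58214727-58214976, strand +: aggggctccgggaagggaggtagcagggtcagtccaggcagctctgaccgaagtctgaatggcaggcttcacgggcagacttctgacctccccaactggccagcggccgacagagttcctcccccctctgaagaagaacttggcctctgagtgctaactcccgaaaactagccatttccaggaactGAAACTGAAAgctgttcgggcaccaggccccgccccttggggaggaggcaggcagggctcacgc
Igtp promoter, chr11:58199306-58199555, strand +: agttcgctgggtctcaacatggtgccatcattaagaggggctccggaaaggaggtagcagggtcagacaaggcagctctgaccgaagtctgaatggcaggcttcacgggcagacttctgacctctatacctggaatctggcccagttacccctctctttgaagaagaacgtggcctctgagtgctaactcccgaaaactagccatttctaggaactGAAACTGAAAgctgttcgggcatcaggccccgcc
Ccnb2 promoter, chr9:70421555-70421804, strand -: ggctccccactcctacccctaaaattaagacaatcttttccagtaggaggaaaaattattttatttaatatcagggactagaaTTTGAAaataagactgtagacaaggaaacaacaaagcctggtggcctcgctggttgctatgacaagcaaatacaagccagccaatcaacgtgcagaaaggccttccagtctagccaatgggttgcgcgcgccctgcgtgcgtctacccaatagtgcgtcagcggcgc

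The Ifit3b window held 2 matches on the minus strand, beginning 188 and 154 bases before the start. Irgm2 and Igtp, neighbouring genes on chromosome 11, held 1 plus-strand match each, 64 and 34 bases before the start. The response element core was found in 11 of 25 interferon-stimulated genes with a promoter in the table (44.0%), in 11 of 17 interferon-gamma genes (64.7%) and in 3 of 19 class I genes (15.8%), against 3.30% of 11161 tested genes and 3.46% of all 27025 promoters. Among genes that rose it was in 55 of 725 (7.59%), and among genes that fell in 7 of 367 (1.91%). TTCNNNGAA, the core of the gamma-activated site, whose letters can overlap those of the response element, was in 8 of 17 interferon-gamma genes (47.1%) against 8.13% of all promoters. A match describes the letters only.

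Irf7 (ENSMUSG00000025498, chr7:141262706-141266481), the regulator that amplifies type I interferon, led the interferon-stimulated list. It stood at 8.94, 9.75, 10.5 and 11.5 CPM at baseline and at 36.4, 46.2, 64.3 and 30.1 CPM at day 7, a log2 change of 2.12 (SE 0.17, adjusted p = 3.46e-08). Ifit3b, of a family of RNA-binding antiviral proteins, rose by 1.08. Isg15, a ubiquitin-like protein, had a value of 0.36 (adjusted p = 0.352) with overlapping libraries. All 35 members had a positive log2 change, and 15 were called higher and none lower, with a median of 0.46. These calls leaned on day 7 replicate 3, the highest day 7 library for Irf7 and Ifit3b: without it 3 members were called, and without baseline replicate 1 there were 8. With another scaling, library totals, 22 were called.

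The interferon-gamma list holds immunity-related GTPases (IRG) and guanylate-binding proteins (GBP), which attack the vacuoles of intracellular microbes. Igtp (ENSMUSG00000078853, chr11:58199556-58207591) stood at 8.94, 15.4, 11.4 and 13.3 CPM at baseline and at 45.4, 48.2, 62 and 42.6 CPM at day 7. That is a change of 2.02 (SE 0.21, adjusted p = 2.27e-06). Irgm2 rose by 1.38 (SE 0.11, adjusted p = 6.2e-08), Iigp1 by 1.28, Irgm1 by 0.96 and Gbp10 by 2.18. Of 24 tested members 10 rose and none fell, with a median of 0.53, and 6 were called without day 7 replicate 3. The interferon-gamma gene itself, Ifng, had 1 baseline and 9 day 7 reads and was not tested.

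Macrophage genes rose broadly and by about 2-fold. Adgre1 (F4/80), a surface protein of mouse macrophages, stood at 5.25, 5.66, 6.95 and 6.21 CPM at baseline and at 12.6, 18.1, 19.2 and 13.8 CPM at day 7, a change of 1.41 (SE 0.27, adjusted p = 0.0025). Ptprc (CD45), the pan-leukocyte phosphatase, rose by 1.60 (SE 0.16), the receptor Csf1r by 0.64, the immunoglobulin receptor chain Fcer1g by 1.11 and the scavenger receptor Msr1 by 1.41. Of 22 general macrophage genes 20 rose and none fell, with a median of 1.04, and 16 to 19 were called with 1 library left out. Their summed level was 314 to 395 CPM at day 7 against 177 to 199 CPM at baseline. At ISO day 7 it was 177 to 381 CPM, with a median of 187 CPM, and so overlapped LPS day 7. At ISO baseline it was 183 to 218 CPM. The day 7 change differed between the LPS and ISO arms for 3 of the 22 genes, against 0.458% of all genes.

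Among monocyte genes 8 of 18 were called, and among resident macrophage genes 4 of 15. Ccr2, the receptor that brings monocytes into tissue, rose by 2.0 (SE 0.35, adjusted p = 0.00096), from 0.475 to 0.869 CPM at baseline to 2.12 to 3.26 CPM at day 7. Spn (CD43) rose by 3.04, Itgal (the LFA-1 alpha chain, also on lymphocytes) by 2.05 and Ly6c2, a marker of inflammatory monocytes, by 2.31. All 8 monocyte genes called rose, with a median of 0.73 over the members with reads in both groups. Of the resident members, 3 rose (Maf, Stab1 and Mrc1, by 0.60 to 0.70) and Ccl24, an eotaxin, fell by 1.25 on the log2 scale. Timd4 (-0.45, adjusted p = 0.346) and Lyve1 (-0.26, adjusted p = 0.196), markers of long-lived resident macrophages, and the haemoglobin scavenger receptor Cd163 (0.52, adjusted p = 0.0606) were not called. The call of Ccl24 ended with any library but day 7 replicate 1 left out (-1.35 to -0.94), and that of Mrc1 without baseline replicate 1 or 2 or day 7 replicate 3 (0.63 to 0.67). Mrc1 was not called against ISO baseline either. The difference between the lists was not tested.

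Of 9 tested dendritic cell genes 2 rose and of 14 tested neutrophil genes 5, against 5.96% of all genes. Itgax (CD11c), found on dendritic cells, macrophages and NK cells, rose by 3.24 (SE 0.46), from 0.115 to 0.593 CPM at baseline to 2.48 to 3.21 CPM at day 7. It and Cd24a were the dendritic cell genes called, and the defining genes Flt3, Cd209a and Xcr1 were not: Flt3 had 14 baseline and 18 day 7 reads, Cd209a 12 and 16, and Xcr1 a value of 0.10 (adjusted p = 0.932). The neutrophil genes that rose were led by Mmp9 (matrix metalloproteinase 9, 1.15) and Csf3r (the G-CSF receptor, 1.77). The neutrophil list had a median of 1.49 and a summed level of 5.62 to 7.88 CPM at day 7 against 2.46 to 3.24 CPM at baseline, without overlap. Ly6g, the neutrophil surface marker, had no read in either group, and leaving out any of the day 7 replicates, or baseline replicate 1 or 2, brought the count of neutrophil genes to 2 or 3.

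Among chemokine genes, Ccl5, which draws T cells, NK cells and monocytes, had the smallest adjusted p. It stood at 0.254, 0.0765, 0.118 and 0.158 CPM at baseline and at 3.59, 4.5, 5.58 and 4.58 CPM at day 7, a change of 4.86 (SE 0.36, adjusted p = 1e-08). The CXCR3 ligand Cxcl9 rose by 0.81 and Cxcl10 by 2.85, and Cxcl16, the CXCR6 ligand, by 0.98. Of 27 tested members 9 rose and 1 fell, and 2 of the 27 passed the filter through the day 7 libraries. Leukocyte adhesion genes rose in 9 of 15, with the integrin chains Itgb2 at 1.18 and Itga4 at 0.97 and their endothelial partners Icam1 at 0.68 and Vcam1 at 0.60. The adhesion count was 5 without day 7 replicate 3. Some calls did not survive the loss of 1 library: Cxcl10 without baseline replicate 1, 2 or 3 or day 7 replicate 2, 3 or 4 (2.59 to 2.93), Cxcl9 without baseline replicate 1 or 2 or day 7 replicate 3 (0.61 to 0.78), and Icam1 without baseline replicate 1 or day 7 replicate 3 (0.57 to 0.58).

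Complement genes rose in 14 of 21 tested and fell in none, with a median of 0.78, where 5.96% of all genes were higher. Their summed level was 731 to 795 CPM at day 7 and 450 to 468 CPM at baseline. At ISO day 7 it was 439 to 755 CPM, with a median of 489 CPM, and so overlapped LPS day 7. At ISO baseline it was 436 to 477 CPM. None of the 21 was called when the day 7 change was tested between the LPS and ISO arms, against 0.458% of all genes. C3, the central component, stood at 80.7, 92.4, 77.3 and 78.5 CPM at baseline and at 234, 199, 224 and 208 CPM at day 7. Its change was 1.39 (SE 0.20, adjusted p = 0.000133). The alternative pathway factor Cfb rose by 2.54, and the chains of C1q, which macrophages make, by 0.85 (C1qa), 0.93 (C1qb) and 0.93 (C1qc). The regulator Serping1, the C1 inhibitor, rose by 0.37, and by 0.35 (adjusted p = 0.0504) without baseline replicate 2.

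None of the acute-phase genes, high at day 1, was called at day 7. Lcn2 (lipocalin 2, an iron-sequestering protein) stood at 2.64, 4.97, 1.74 and 4.79 CPM at baseline and at 3.02, 2.25, 2.84 and 2.25 CPM at day 7, a value of -0.45 (SE 0.27, adjusted p = 0.335), where its day 1 mean was 2014 CPM. Saa3, a serum amyloid, had a mean of 0.344 CPM at baseline, 0.404 CPM at day 7 and 664 CPM at day 1, and baseline replicate 4 alone stood at 1.19 CPM. None of the 14 tested acute-phase and metallothionein genes was called by edgeR or by DESeq2, 3 had an unadjusted p under 0.05, and their median was 0.23 over the 12 members with reads in both groups. Without baseline replicate 4, 1 was called higher, and none was with any other single library left out. Saa3 was called in 1 of its 22 alternatives, over which its log2 change ran from -0.12 to 3.23.

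Of the genes of LPS sensing, the co-receptor Cd14 (0.86) and Tlr2 (1.10), which senses bacterial lipoproteins, rose, whereas Tlr4 stood at 6.45 to 9.97 CPM at baseline and 6.7 to 10.3 CPM at day 7 (0.08, adjusted p = 0.79). The negative regulators Tnfaip3 (A20, 0.80) and Irak3 (0.55) rose, and in all 6 of 24 genes of sensing and NF-kB did so, or 3 without baseline replicate 1. Over all genes 5.96% were higher. Of 23 tested cytokine and receptor genes 7 rose, among them Csf2rb (1.28), Il2rg (the common gamma chain, 0.98) and Il10ra (1.29), and 4 were called without baseline replicate 1. Irak3 was called with no library left out (0.49 to 0.61 otherwise), and Tnfaip3 was not called without baseline replicate 1, 3 or 4 or day 7 replicate 2 or 3 (0.65 to 0.79). Tnf (0.71, adjusted p = 0.395) was not called, and Il1b had 13 baseline and 10 day 7 reads.

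Most genes of mitosis and DNA replication rose. Mki67 (ENSMUSG00000031004, chr7:135689784-135716361), the Ki-67 antigen of cycling cells, stood at 2.57, 1.34, 4.54 and 4.35 CPM at baseline and at 7.39, 22.1, 29.9 and 14.1 CPM at day 7. The day 7 libraries were all higher but widely spread, and the change was 2.53 (SE 0.51, adjusted p = 0.00306). Top2a, topoisomerase II alpha, rose by 2.53, Ccnb2, a mitotic cyclin, by 2.86, Aurkb, the Aurora B kinase, by 2.92, and Mcm5, a subunit of the replicative helicase, by 1.02. Of 34 tested members 29 rose and none fell, with a median of 1.92. Leaving out day 7 replicate 3, which had the highest Mki67 level, left 17. TTTGAA was found in 10 of 29 members with a promoter (34.5%), against 18.3% of all promoters and 1452 of the 11161 tested genes that have one. Which cells were cycling cannot be read from whole-heart RNA.

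Among genes of oxidative metabolism a part fell at day 7, by small amounts. Mitochondrially encoded transcripts fell in 7 of 13, with a median of -0.34, against 3.13% of all genes lower. Their summed level was 207000 to 236000 CPM at day 7 against 262000 to 291000 CPM at baseline, without overlap. mt-Co3, a subunit of cytochrome c oxidase, fell by 0.39 on the log2 scale (SE 0.09, adjusted p = 0.0109). The count was 1 without day 7 replicate 3, 2 without day 7 replicate 1 or 2 or baseline replicate 1 or 2, and 4 without baseline replicate 4. With library totals the median was -0.18 and 3 were called.

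Of the nuclear genes of the respiratory chain and ATP synthase a minority were called, all of them lower. Of 36 complex I genes, 5 fell and none rose, and 35 of the 36 had a negative log2 change, with a median of -0.15. Ndufv1, the NADH-binding subunit, stood at 581, 590, 563 and 582 CPM at baseline and at 496, 469, 429 and 480 CPM at day 7, a change of -0.31 (SE 0.07, adjusted p = 0.00699). Of 27 genes of complexes II to IV, 9 fell, with Uqcr11, a small subunit of complex III, at -0.39 and Cox7a1, the heart and muscle form of a complex IV subunit, at -0.48. Of 16 ATP synthase genes, 2 fell, Atp5e and Atp5b. For complex I the count was 2 without day 7 replicate 3 and 3 without day 7 replicate 4 or baseline replicate 1. For complexes II to IV it was 3 without day 7 replicate 3 or 4 or baseline replicate 1 or 2, and 5 without day 7 replicate 2. No ATP synthase gene was called without day 7 replicate 2 or 3 or baseline replicate 1 or 2, and 1 was without day 7 replicate 1 or 4 or baseline replicate 4. Atp5b was called in the full set and without baseline replicate 3 only, and Atp5e was not called without baseline replicate 1 or 2 or day 7 replicate 2 or 3 (-0.32 to -0.29).

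These small falls depended on the scale. With library totals, complex I had 1 gene higher and 3 lower and a median of 0.01, complexes II to IV had 1 higher and 3 lower, and ATP synthase 1 higher and none lower. With the ISO baseline in place of the LPS baseline, 22 complex I genes and 16 genes of complexes II to IV were lower. LPS baseline was itself below ISO baseline for complex I, with a median of -0.13 and 4 genes called lower. Of all genes 1.21% differed between these baselines. At ISO day 7 against ISO baseline the medians were -0.10 (complex I), -0.09 (complexes II to IV), -0.09 (ATP synthase) and -0.04 (mitochondrially encoded). None of these genes was called when the day 7 change was tested between the LPS and ISO arms, where 0.458% of all genes were. The absolute amount of these transcripts was not measured.

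Branched-chain amino acid catabolism was the metabolic list with the most called members. Acadsb, the short/branched-chain acyl-CoA dehydrogenase of isoleucine breakdown, stood at 103, 107, 99 and 108 CPM at baseline and at 70.2, 81.2, 73.7 and 82.3 CPM at day 7, a change of -0.44 (SE 0.07, adjusted p = 0.00043). Ivd, the isovaleryl-CoA dehydrogenase of leucine breakdown, fell by 0.55 on the log2 scale. Bckdha and Bckdhb, the E1 subunits of the branched-chain ketoacid dehydrogenase that commits these amino acids to oxidation, had changes of -0.40 and -0.31, and its inhibitory kinase Bckdk one of -0.33. Of 24 members 14 fell and none rose, all 24 had a negative log2 change, and the median was -0.28. The summed level was 2060 to 2260 CPM at day 7 against 2590 to 2810 CPM at baseline. There were 5 calls without day 7 replicate 3 or baseline replicate 1 or 2, and 7 without day 7 replicate 1. Bckdhb was not called without any of these 4 libraries (-0.31 to -0.28). With library totals 4 were lower, with a median of -0.12, and with the ISO baseline as reference 19.

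Ketone body metabolism held the largest single fall of the metabolic lists. Bdh1 (ENSMUSG00000046598, chr16:31422280-31458901), the mitochondrial 3-hydroxybutyrate dehydrogenase, stood at 69.3, 48.7, 93.8 and 92.7 CPM at baseline and at 22.3, 45.2, 44.1 and 36.1 CPM at day 7. The highest day 7 library, at 45.2 CPM, was just under the lowest baseline library, and the change was -1.04 (SE 0.21, adjusted p = 0.00306). Oxct1, the transferase that activates acetoacetate for use as fuel, fell by 0.33 on the log2 scale. Of 6 members 4 fell, among them Acat1, which the branched-chain list holds too. Acat1 was not called without baseline replicate 1 or 2 or day 7 replicate 3 (-0.29 to -0.28). Slc16a1 (-0.19, adjusted p = 0.274), a carrier of lactate and ketone bodies, was not called.

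In fatty acid oxidation, Acads, the short-chain acyl-CoA dehydrogenase, stood at 174, 161, 163 and 160 CPM at baseline and at 114, 127, 121 and 124 CPM at day 7, a change of -0.44 (SE 0.08, adjusted p = 0.00225). Echs1, the enoyl-CoA hydratase of short chains, had a change of -0.32, and Cpt2, the inner-membrane carnitine palmitoyltransferase, one of -0.35. Cpt1b, the muscle enzyme that controls fatty acid entry, was at -0.09 (adjusted p = 0.458). Of 26 members 8 fell and none rose, with a median of -0.22, and leaving out any library but baseline replicate 4 brought this to between 3 and 5. Cpt2 kept its call only in the fits without baseline replicate 3 or 4 or day 7 replicate 2 (-0.35 to -0.31 in the others). With library totals 2 were lower. At ISO day 7 against ISO baseline the median of these 26 genes was -0.10. None of the 26 differed in its day 7 change between the LPS and ISO arms, against 0.458% of all genes. Upstream, Lpl, the lipoprotein lipase that frees fatty acids at the vessel wall, fell by 0.39 on the log2 scale, Fabp5, a fatty acid-binding protein of endothelial cells and macrophages, rose by 0.57, and Cd36, the main fatty acid transporter, was at -0.20 (adjusted p = 0.137). Fabp5 was not called with ISO baseline, or both baselines together, as reference.

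Pyruvate oxidation and the citric acid cycle had 10 of 31 genes lower and none higher, with a median of -0.17. They included the isocitrate dehydrogenase genes Idh3b (-0.34), Idh3g (-0.38) and Idh2 (-0.29) and the pyruvate carboxylase gene Pcx (-0.36). Leaving out day 7 replicate 3 left 3, and leaving out any other day 7 replicate or baseline replicate 1 or 2 left 5 or 6. Idh2 was not called without day 7 replicate 3 (-0.26). With library totals 3 were lower. Cs, citrate synthase, was at -0.14 (adjusted p = 0.275). Of 16 glycogen genes 4 fell, led by the lysosomal glucosidase Gaa (-0.32), but with library totals 2 were higher and none lower, and leaving out any library but day 7 replicate 1 left 1 or 2.

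Of 26 genes of glucose uptake and glycolysis 3 rose and none fell, where 5.96% of all genes were higher and 3.13% lower. Eno1, the alpha enolase, stood at 106 to 114 CPM at baseline and at 167, 127, 139 and 139 CPM at day 7, a rise of 0.38 (SE 0.07, adjusted p = 0.0028). Pfkfb3, which makes the activator of phosphofructokinase and is prominent in immune and endothelial cells, rose by 0.65, and Slc16a3, a lactate exporter, by 0.70. The list median was -0.03, and 1 was called without day 7 replicate 3, where Pfkfb3 (0.61) was not. Slc16a3 was not called there or without baseline replicate 1 or 2 (0.66 to 0.68). Against ISO baseline Pfkfb3 was not called. With library totals 8 were higher. The glucose transporter Slc2a4 (-0.24, adjusted p = 0.118) and hexokinase Hk2 (-0.25, adjusted p = 0.0973) were not called.

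Of 23 regulators of these programmes (the PPAR, PGC-1 and ERR families and their partners) 1 was called, with a list median of -0.13. Their summed level was 2360 to 2650 CPM at day 7 against 2670 to 2860 CPM at baseline, without overlap. Ppara, the receptor that drives fatty acid oxidation genes, had a value of -0.23 (adjusted p = 0.339), the coactivator Ppargc1a -0.14 (adjusted p = 0.729) and the receptor Esrra -0.14 (adjusted p = 0.390). The gene called was Tfb2m (-0.25), a mitochondrial transcription factor, at -0.22 without baseline replicate 2, where it was not called, and at 0.04 (adjusted p = 0.708) against ISO baseline. Of 25 sterol and fatty acid synthesis genes 1 rose, the cholesterol exporter Abcg1, and of 35 mitochondrial ribosome genes 2 fell. Over all genes 5.96% were higher and 3.13% lower, near the shares in these lists and among the regulators. In NAD and creatine metabolism, Slc6a8, the creatine transporter, fell by 0.35 on the log2 scale, while Gamt, which makes creatine, rose by 0.68. Nampt, the rate-limiting enzyme of NAD salvage, was at -0.29 (adjusted p = 0.0987). With 1 library left out, Slc6a8 was not called in 5 of 8 fits (without baseline replicate 1, 2 or 4 or day 7 replicate 1 or 3, -0.37 to -0.33) and Abcg1 in 5 of 8 (without baseline replicate 1, 2 or 3 or day 7 replicate 3 or 4, 0.29 to 0.48). Against ISO baseline Slc6a8, Abcg1 and Gamt were not called.

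**Figure D3:**
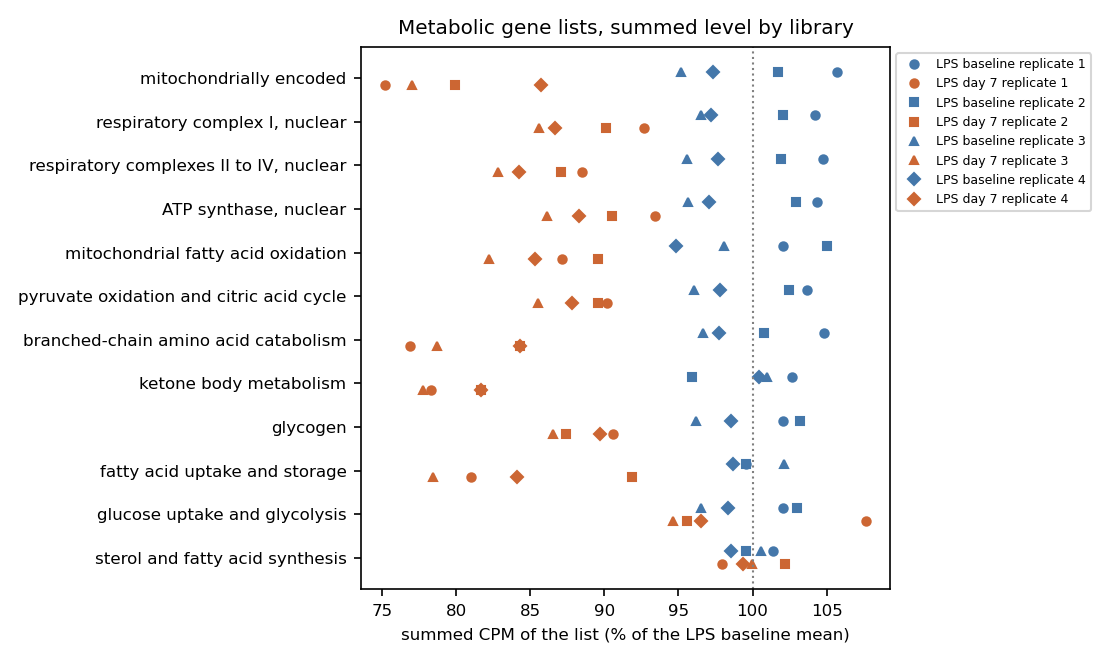
Summed CPM of 12 metabolic lists in each library, as percent of the mean of the 4 LPS baseline libraries (dotted line at 100). In the lists of oxidative metabolism, glycogen and fatty acid uptake the 4 LPS day 7 libraries (orange) lie below the 4 LPS baseline libraries (blue), while glycolysis and sterol synthesis overlap. These CPM use TMM factors, and small falls depended on that scaling. With library totals the median log2 change of all genes moved from 0.00 to 0.16. The mitochondrial ribosome list (1310 to 1450 CPM against 1430 to 1530 CPM) and the NAD and creatine list (4570 to 4730 CPM against 4680 to 5140 CPM), not plotted, overlap too.

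Of 16 glucocorticoid-responsive genes 1 rose and 1 fell, near the shares over all genes (5.96% higher and 3.13% lower). The levels of 3 genes known to respond to fasting were spread widely among the day 7 hearts. Pdk4, the kinase that blocks pyruvate oxidation, stood at 218, 214, 290 and 193 CPM at baseline and at 77.4, 599, 209 and 228 CPM at day 7 (0.28, adjusted p = 0.746). Day 7 replicate 2 was the highest and replicate 1 the lowest of the 8. The same order held for the uncoupling protein gene Ucp3, at 20.4 and 86.2 CPM in day 7 replicates 1 and 2, and replicate 2 was also the highest for the lipase inhibitor Angptl4, at 14 CPM. None of the 3 was called. Zbtb16, a transcription factor induced by these hormones, rose by 0.76, Cdkn1a fell, and Fkbp5 (0.43, adjusted p = 0.4) was not called. Zbtb16 was called without baseline replicate 4 or day 7 replicate 2, and not with any other library left out (0.58 to 0.78).

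Clock genes differed between the groups, and for them the choice of baseline decided the call. Dbp (ENSMUSG00000059824, chr7:45705088-45710203), an output gene of the clock, stood at 26.6, 36.9, 36.9 and 35.2 CPM at LPS baseline and at 139, 70.8, 111 and 120 CPM at LPS day 7, a change of 1.70 (SE 0.24, adjusted p = 0.000133). In the other untreated hearts, those of the ISO arm, it stood at 74.7, 72.4, 107 and 70.2 CPM, and LPS day 7 against them gave 0.44 (adjusted p = 0.223). LPS baseline was itself below ISO baseline by 1.26 (adjusted p = 0.00663). Arntl (BMAL1), which drives the clock in the opposite phase, had a change of -1.30 (adjusted p = 0.00872) against LPS baseline and -0.33 (adjusted p = 0.543) against ISO baseline. Npas2 (-1.07), its partner, and Nfil3 (-0.81) fell likewise, and Nr1d1 (REV-ERB alpha) rose by 0.64. Npas2 was not called without baseline replicate 1 or day 7 replicate 4 (adjusted p = 0.0573 and 0.0588).

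Of 19 clock genes, 6 rose and 4 fell against LPS baseline, and none was called by edgeR in either direction against ISO baseline (1, Clock, with an unadjusted p under 0.05; DESeq2 was not run there), where 14.1% of all genes were called, 7.97% higher and 6.14% lower. Without day 7 replicate 4, 3 rose and 3 fell. Both baseline groups were untreated, and 191 of 15732 genes (1.21%) differed between them, a count of 107 to 139 with 1 library left out (107 and 124 without ISO baseline replicates 2 and 1, 112, 119 and 124 without LPS baseline replicates 4, 3 and 1). Cdkn1a (p21), an inhibitor of the cell cycle, showed the same dependence, with a change of -1.29 (adjusted p = 0.000234) against LPS baseline and -0.41 (adjusted p = 0.18) against ISO baseline. The part of the hour of collection in these differences was not tested. Of all 938 genes that rose, 704 also rose against ISO baseline, and of the 493 that fell, 285 also fell.

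**Figure D4:**
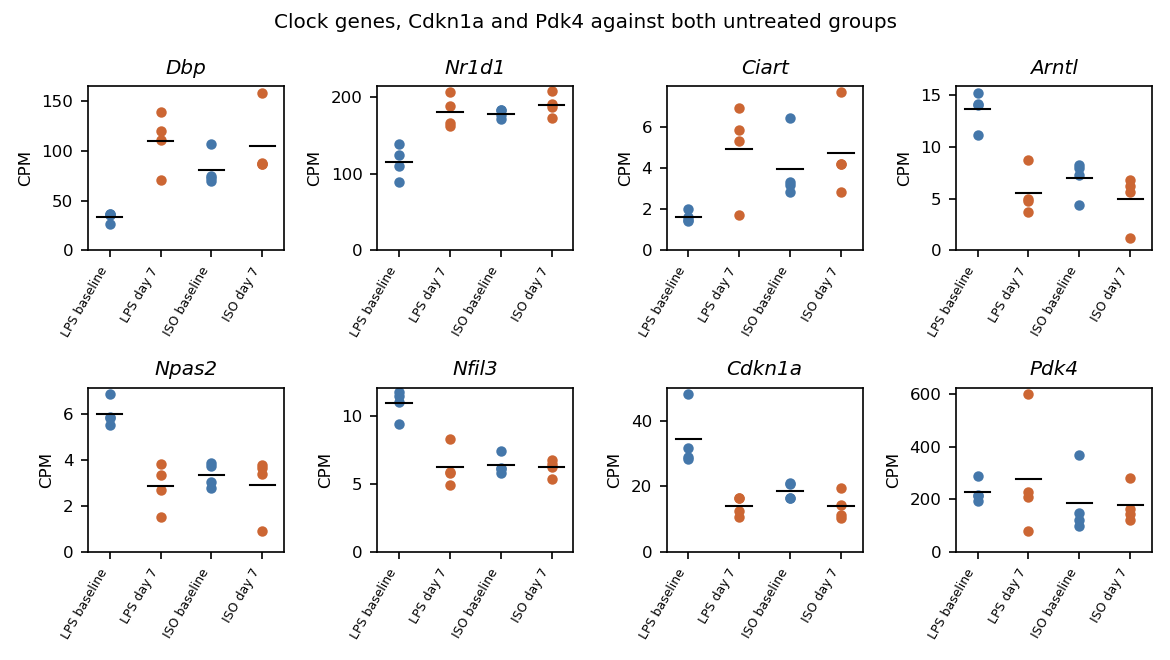
CPM of 6 clock genes, Cdkn1a and Pdk4 in each library of the untreated (blue) and day 7 (orange) groups of both arms, with a bar at the mean of 4. For the clock genes and Cdkn1a the LPS day 7 values mostly lie near those of ISO baseline and away from LPS baseline. For Ciart, LPS day 7 replicate 2 (1.73 CPM) lies within the LPS baseline range (1.42 to 2.03 CPM). For Pdk4 all groups overlap.

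The heart's own stress and structural genes changed little. Nppa (0.22, adjusted p = 0.708) and Nppb (-0.20, adjusted p = 0.77), the natriuretic peptides released under wall stress, were not called. Myh7, the beta myosin heavy chain that rises in the stressed mouse ventricle, stood at 157 to 186 CPM at baseline and at 441, 196, 199 and 203 CPM at day 7, above baseline in every library but with replicate 1 far from the rest (0.58, adjusted p = 0.188). Of 17 stress genes 2 were called, both lower, Ankrd23 and Xirp2, and neither was called against ISO baseline. Over all genes 3.13% were lower. Of 24 adult cardiomyocyte genes 5 fell, with Kcna5, an atrial and ventricular potassium channel, at -0.50, Ryr2, the calcium release channel, at -0.34 and Cacna1c, the L-type calcium channel, at -0.28. Their summed level overlapped, at 93700 to 105000 CPM against 101000 to 107000 CPM, and with library totals 1 was higher and 1 lower. The count of 5 became 3 without day 7 replicate 2 or 3 or baseline replicate 2. Kcna5 was not called against ISO baseline.

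Among other cells of the heart, Spp1, osteopontin, was the 1 of 24 activated fibroblast and matrix genes called, at 0.145 to 0.268 CPM at baseline and 4.49, 0.451, 0.456 and 2.61 CPM at day 7, and macrophages express it too. Over all genes 5.96% were higher and 3.13% lower. Col1a1 stood at 136, 128, 194 and 189 CPM at baseline and at 237, 265, 268 and 250 CPM at day 7 without being called (0.66, adjusted p = 0.31), and Postn was at 0.49 (adjusted p = 0.651). Of 15 endothelial genes 5 rose, with Egfl7 at 0.34, the caveolin Cav1 at 0.61 and Vwf at 0.46, and Aqp1 fell by 0.40 on the log2 scale. This became 2 without day 7 replicate 3 and 3 without baseline replicate 2. Vwf (0.39 to 0.43) was not called without baseline replicate 1 or day 7 replicate 3, Aqp1 (-0.36 to -0.31) without either of these or day 7 replicate 2, and Spp1 (2.49 to 3.13) without baseline replicate 1 or day 7 replicate 1. Erythrocyte genes, which mark blood in the tissue, all had positive changes (7 of 7 tested, median 1.16), and 2 were called, among them Slc4a1. Against ISO baseline 7 of 7 were higher, where 7.97% of all genes were. Their summed level was 874 to 4200 CPM at day 7 and 780 to 1190 CPM at baseline, and overlapped. The count of 2 was 1 without day 7 replicate 2 or baseline replicate 1, 2 or 3, and 3 without day 7 replicate 4. Slc4a1, the red cell anion exchanger, rose by 2.77 and stood at 3.59, 8.86, 2.95 and 1.6 CPM at day 7. Day 7 replicate 2 was the highest library for all 7 tested erythrocyte genes. The part of blood in the leukocyte rises was not tested.

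At day 1 the same lists stood elsewhere, and values are given side by side because both comparisons share the LPS baseline libraries. At day 1, 66.2% of genes were called against baseline, 33.2% higher and 33.0% lower. The medians at day 1 and day 7 were 3.21 and 0.46 for interferon-stimulated genes, 3.77 and 0.53 for interferon-gamma genes and 6.27 and 0.14 for acute-phase genes. They were 1.42 and 4.20 for NK genes, -1.04 and 0.94 for class II genes, 0.08 and 1.04 for macrophage genes and -0.34 and 1.92 for mitosis genes. Of the 16 tested NK genes, 9 passed the filter through the LPS day 7 libraries, so a high day 7 value was built in for these. Irf7 had a day 1 mean of 458 CPM against 44.2 CPM at day 7, and Il2rb one of 1.26 CPM against 6.47 CPM.

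The direct comparison of day 7 with day 1 tested these differences. Il2rb was higher at day 7 by 2.37 (adjusted p = 1.35e-08), Ptprc by 1.73 (adjusted p = 4.79e-09) and Mki67 by 3.71 (adjusted p = 4.61e-06), whereas Irf7 was lower by 3.37 (adjusted p = 6.53e-14) and Igtp by 4.92 (adjusted p = 2.07e-14). In that comparison 66.4% of all genes were called, 33.9% higher and 32.5% lower. Of the 938 genes above baseline at day 7, 476 were also above it at day 1, 159 were below it at day 1 and 303 were not called at day 1. Of the 493 genes below baseline, these numbers were 273 below, 73 above and 147 not called.

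**Figure D5:**
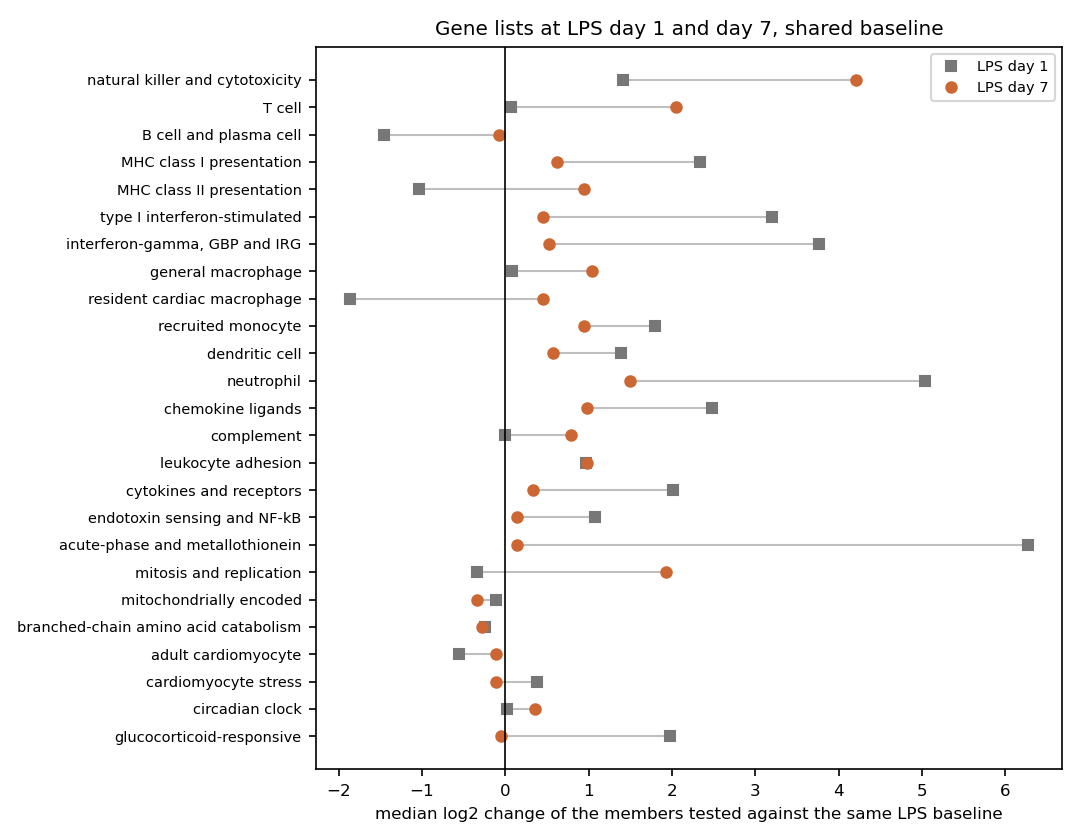
Median log2 change of the tested members of 25 lists against the LPS baseline, at LPS day 1 (grey squares) and LPS day 7 (orange circles), joined per list. Acute-phase and interferon lists lie far to the right at day 1 and much closer to 0 at day 7. Their day 7 medians were 0.14 (acute-phase), 0.46 (type I interferon) and 0.53 (interferon-gamma). NK, class II, macrophage and mitosis lists lie further right at day 7 than at day 1. For 9 of 16 NK and 9 of 18 T cell genes, which passed the filter through the LPS day 7 libraries, a high day 7 value was built in.

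The change at day 7 was set against that of the ISO arm by a test of the difference, which called 72 genes (0.458%), 57 higher (0.362%) and 15 lower (0.0953%) in the LPS arm. The difference was 3.80 (SE 0.44, adjusted p = 8.42e-05) for Il2rb, 5.53 for Gzma, 4.66 for Nkg7, 3.31 for Lck and 5.47 for Ccl5. It was 1.09 for H2-K1, 1.01 for H2-Ab1, 1.87 for Irf7, 2.06 for Igtp, 1.38 for Ptprc and 3.27 for Spn. Of the tested genes, 9 of 16 NK, 9 of 18 T cell and 2 of 27 chemokine genes passed the filter through the LPS day 7 libraries. For such genes a difference between the arms was built in, and the values are a description. Adgre1, C3, Mki67 and Dbp were not called in this test. On the lower side it called Acadsb (-0.52, adjusted p = 0.0116), Gaa and Ano10. ISO day 7 against ISO baseline had 1 gene called of 15732 in edgeR (0.00636%). The count of 72 depended on single libraries and was 320 without ISO day 7 replicate 3, 40 without ISO baseline replicate 1, 42 without ISO day 7 replicate 4, 43 when LPS day 7 replicate 3 was dropped, 46 when LPS baseline replicate 2 was, and 48 to 68 without any other library.

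By the rule for single genes (the 12 highest and 12 lowest changes among protein-coding called genes with a mean of at least 5 CPM and no overlap), the higher side held Il2rb, Mki67, Top2a, Irf7, Igtp, Dbp and Ptprc, described above, and 5 others. Gm4841 (3.65) and F830016B08Rik (2.60) are predicted interferon-inducible GTPase genes and Gm43302 (1.75) a predicted guanylate-binding protein gene, whose reads may be split between near-identical copies. Rac2, a GTPase of blood cells, went from 1.8 to 2.33 CPM at baseline to 6.21 to 8.52 CPM at day 7 (1.85, SE 0.19, adjusted p = 1.54e-06). Tent5c (1.70), a poly(A) polymerase, was highest in day 7 replicate 2, at 23.4 CPM.

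The lower side held Arntl, Npas2, Nfil3, Cdkn1a and Bdh1, described above, and 7 others. Ano10, a member of the anoctamin membrane proteins, stood at 38.3, 36.4, 41.3 and 41.6 CPM at baseline and at 16.1, 27.9, 21.5 and 25.4 CPM at day 7 (-0.79, SE 0.16, adjusted p = 0.00386). Timp4 (-0.76), a metalloproteinase inhibitor abundant in the heart, Itgb6 (-0.75), an integrin chain, and Phyhd1 (-0.69) were lower than both untreated groups. Ddit4 (-0.97), a stress-induced inhibitor of mTOR, Adam19 (-0.76) and Fam222a (-0.71) were lower than LPS baseline but not than ISO baseline (adjusted p = 0.452, 0.823 and 0.765), and baseline replicate 1 alone held 88.6 CPM of Ddit4. Ddit4 was not called without that library or day 7 replicate 1, 2 or 3 (-1.01 to -0.58), nor Fam222a without that library or day 7 replicate 3 (-0.62 to -0.59).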

How the data were processed

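Poly-A RNA of 23 mouse hearts had been sequenced. Per the submitters' processing notes, which name bcl2fastq, DRAGEN, edgeR, limma and the mm10 build without versions, the authors made per-gene quantification tables and deposited them with estimated counts, effective lengths and TPM. The sources used here do not give their settings for strand or for reads shared between genes, and 9.5% of the estimated counts were not whole. TPM as deposited by the authors was used in 1 alternative only. Symbols and coordinates came from GENCODE M21 (GRCm38), which matched 55227 of 55487 genes. At most 0.0057% of a library's reads were unmatched.

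Counts were rounded. Genes passing edgeR's filter (minimum count 10) were fitted with edgeR 4.0.16 (R 4.3.3, TMM factors, quasi-likelihood test) as 6 group means over all 23 libraries. P-values were adjusted by Benjamini-Hochberg over the 15732 genes and called under 0.05. The common biological coefficient of variation was 11%. A standard error is the size of the log2 change divided by the square root of F. Groups follow the labels. No 2 libraries of a group agreed within sampling noise, and no label says how they were raised or processed, so p-values measure the spread between these samples. On simulated counts for this comparison (15732 genes, 200 of them changed) 64.2% of genes changed 1.5-fold, 71.6% of those changed 2-fold and 95.5% of those changed 4-fold were called, with 6 false calls.

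The comparison, the gene lists and their members were chosen with earlier results of these data known. Single genes named included up to 8 per list, and the 12 highest and 12 lowest changes among called protein-coding genes with a mean of at least 5 CPM and no overlap between the groups. Others came from a panel of genes chosen by name, among them Ifng, Cd4, Foxp3, Tlr4, Tnf, Saa3, Nppa and Ppara. Members are counted and given by their median beside the same over all genes, and lists were not tested as sets. A few members are counted in their lists but not reported singly here. Alternatives were DESeq2 1.42.0 and its size factors, limma 3.58.1 with voom, log2(TPM + 0.1), upper-quartile factors, library totals, effective-length offsets, a minimum count of 50, no filter, the 2 groups alone, a replicate block, the ISO baseline or both baselines as reference, no mitochondrially encoded genes, and each library left out. Promoters are RefSeq sequences of GRCm38.p6. Intervals and read totals cover counting error only.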

Additional observations from a re-analysis of the deposited data

Results flagged for a closer look

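In 4 libraries per group, a highest or lowest value was marked where its gap to the next, as a share of the group's range, exceeded the 95% critical value of Dixon's test. Of 378 such tests 20 (5.29%) were marked, where chance marks about 1 in 20. At LPS baseline, replicate 1 was the lowest for Irgm2 (18.1 CPM) and Dbp (26.6 CPM) and the highest for Cdkn1a (48.3 CPM) and Ddit4 (88.6 CPM). Baseline replicate 2 was the lowest for H2-Ob (0.0382 CPM) and Itgb2 (3.52 CPM) and the highest for Klrb1c (0.0382 CPM, the 1 read in that group) and Ly6c2 (0.535 CPM). Baseline replicate 3 was the highest for Xcl1 (0.0395 CPM) and Dpt (53.1 CPM), and replicate 4 for Saa3 (1.19 CPM). At LPS day 7, replicate 1 was the highest for Lyve1 (15.2 CPM) and Myh7 (441 CPM) and the lowest for Itga4 (4.21 CPM). Day 7 replicate 2 was the highest for haemoglobin transcripts (0.454% of reads), Cd24a (5.63 CPM) and Angptl4 (14 CPM), replicate 3 for Vcam1 (16.1 CPM) and C1qa (66.6 CPM), and replicate 4 for Gzmm (4.74 CPM).

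The day 7 change in the LPS arm differed from that in the ISO arm for 35 of the 184 named genes, by edgeR's test of the difference with adjustment over all genes. The values are the log2 change in the LPS arm minus that in the ISO arm. For NK and T cell genes the difference was 3.80 (Il2rb), 5.53 (Gzma), 5.66 (Gzmb), 5.57 (Prf1), 4.66 (Nkg7), 5.92 (Ctsw), 7.08 (Xcl1), 3.31 (Lck), 4.78 (Cd3e) and 3.83 (Cxcr3). For antigen presentation genes it was 1.09 (H2-K1), 1.04 (B2m), 0.81 (H2-D1), 1.01 (H2-Ab1), 1.14 (H2-Eb1), 1.14 (H2-Aa) and 1.03 (Cd74). For interferon genes it was 1.38 (Irgm2), 2.06 (Igtp), 1.87 (Irf7), 1.45 (Iigp1), 4.29 (Gm4841) and 2.79 (F830016B08Rik). For myeloid and other leukocyte genes it was 1.38 (Ptprc), 1.01 (Fcer1g), 1.46 (Msr1), 3.27 (Spn), 2.18 (Itgal), 2.66 (Ly6c2), 5.47 (Ccl5) and 1.54 (Rac2). For metabolic and other genes it was -0.52 (Acadsb), -0.38 (Gaa), 0.89 (Gamt) and -1.02 (Ano10). In the NK and T cell lists, 9 of 16 and 9 of 18 tested members passed the filter through the LPS day 7 libraries. For such genes a difference between the arms was built in.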

How the results depend on the processing

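The 1431 calls were mostly kept by DESeq2 (98.7% of them) and by DESeq2 size factors (96.8%), and less by log2(TPM + 0.1) (61.6%) and effective-length offsets (63.5%). The number of genes called was 2220 against ISO baseline, 2242 against both baselines, 2600 with the 2 groups alone and 2511 with library totals. With 1 library left out it was 621 (without day 7 replicate 3) to 1198. Genes called higher, 938 in all, were 1445 with the groups alone, 2421 with library totals and 2035 with log2(TPM + 0.1), and 456 to 862 with 1 library left out. Genes called lower, 493 in all, were 742 with DESeq2, 966 against ISO baseline, 852 against both baselines, 319 with effective-length offsets, 1155 with the groups alone, 90 with library totals and 44 with log2(TPM + 0.1), and 165 to 372 with 1 library left out. The replicate block gave 2441 genes called, 1065 of them lower. Same-numbered libraries correlated at 0.043, -0.058, 0.088 and 0.004 in their deviations from the group means, so the numbers do not pair the samples. The 191 genes differing between the baselines were 316 with DESeq2, 701 with the groups alone, 663 with the replicate block and 107 to 139 with 1 library left out. The 72 genes differing between the arms were 141 with DESeq2 and 40 (without ISO baseline replicate 1) to 320 (without ISO day 7 replicate 3) with 1 library left out. Day 7 against day 1 called 9835 to 10360 genes with 1 library left out, against 10444 in all.

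Of 144 named genes called, 90 were called under every alternative in which they were tested. Some low genes were not tested in all 22: Tbx21 was tested in 16 and Cd8a in 19. Calls among the other 54 were lost most often with log2(TPM + 0.1) (30 genes), without day 7 replicate 3 (25), without baseline replicate 1 (25), without baseline replicate 2 (19) or against ISO baseline (19), and 1 value reversed, that of Tfb2m, at 0.04 against ISO baseline. The adjusted p of Dbp was at most 0.223, that of Arntl at most 0.543 and that of Cdkn1a at most 0.18 over the alternatives. Where an alternative leaves out a library, fewer samples were fitted. Otherwise the cause was not tested. At this depth a gene under about 0.382 CPM, the level of the count filter, was mostly untested, and low lymphocyte genes rest on few baseline reads.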

Other observations

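Stromal genes outside the lists above were mostly not called at day 7, where 5.96% of all genes were higher and 3.13% lower. Of 10 quiescent fibroblast genes 1 rose, Dpt (dermatopontin, a matrix protein), by 0.41 on the log2 scale (edgeR, adjusted p = 0.0237), while the defining receptor gene Pdgfra was at 0.09 (adjusted p = 0.677). The list's summed level was 2080 to 2180 CPM at day 7 and 1950 to 2100 CPM at LPS baseline, with overlap. Of 12 pericyte and smooth muscle genes 2 rose, the receptor gene Pdgfrb (0.21) and the proteoglycan gene Cspg4 (0.32), and the smooth muscle actin gene Acta2 was at -0.03 (adjusted p = 0.946). Dpt (0.38 to 0.40) was not called without baseline replicate 1, 2 or 4 or day 7 replicate 2 or 3, and Pdgfrb (0.18 to 0.20) and Cspg4 (0.26 to 0.27) were not called without baseline replicate 1 or 2 or day 7 replicate 3. In edgeR none of the tested adipocyte (5), mesothelial (6), and Schwann cell and neuron (6) genes was called, with 0, 1 and 2 of them under an unadjusted p of 0.05, and DESeq2 called the mesothelial gene Wt1 alone.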
